A study of Mus musculus with 6 samples.

Results

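Ferlins and annexins are calcium-dependent, membrane-binding proteins that act when the plasma membrane is torn or when vesicles fuse with it. Ferlins are anchored in the membrane by a single transmembrane segment and carry several C2 domains, which bind phospholipids when calcium enters the cell. Annexins are soluble, bind acidic phospholipids through a repeated core, and gather at a wound in the membrane, where some of them form complexes with small S100 proteins. The 10 genes of this family described here are the ferlins Myof and Dysf and the annexins Anxa1, Anxa2, Anxa3, Anxa4, Anxa5, Anxa6, Anxa7 and Anxa11, out of 23412 genes in the table. They were taken by gene symbol, and the family was chosen on these same libraries because Myof and Anxa3 were lower in HN, so the difference between the lines in the 10 genes is a description, and counts of these genes past a threshold on it test nothing. All 10 had a row in the table and all 10 passed the filter on low values, a mean normalized count of at least 5 over the 6 libraries.

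The libraries came from undifferentiated mouse embryonic stem cells (mESCs) of strain 129Sv. R1 is the wild-type line (3 libraries), and HN is an Htt-/- line that lacks huntingtin because the promoter and exon 1 of Htt are deleted on both alleles (3 libraries). Cells of both lines were grown without feeders, in serum with LIF and the inhibitors SU5402, PD184352 and CHIR99021, and replicates with the same number were collected on the same date. Each genotype is a single cell line, so the genotype and the line cannot be told apart. RNA-seq read pairs were counted per gene without regard to strand, and values are normalized counts, that is reads divided by a size factor for each library.

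Between 1640391 and 3866717 reads per library fell on genes. Htt, the deleted gene, had 230, 257 and 199 normalized counts in R1 replicates 1 to 3 and 18.3, 58.1 and 54.2 in HN, so the libraries matched their labels, although HN libraries still held reads counted on the gene. Defining markers of undifferentiated mESCs were present in every library, and their summed normalized counts ranged from 15328 to 21757 in R1 and from 17056 to 23563 in HN. The third collection date was compared with the earlier dates in a model that included the line. In limma 5842 of 14276 tested genes had an adjusted p under 0.05. The first and second dates were not compared in this way, so it was not tested whether the third differed more. Same-date replicates deviated together from the means of their lines, with correlations across genes of 0.25, 0.688 and 0.768, although R1 replicate 1 correlated more with HN replicate 2 (0.339) than with its own date. Differences within dates are therefore given for the family, and values with the replicate number as a block for the other genes.

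The sequences upstream of Myof, of the other ferlin Dysf and of Anxa2 are shown because the lines did not overlap in Myof and Anxa2, and Dysf is the relative of Myof. They are the parts of the 250 bases before the RefSeq start (for Dysf the first of its starts, build GRCm38.p6) that lie outside GENCODE exons, written 5′ to 3′ on the strand of the gene. Capitals mark matches, on either strand, to the CCAAT box letters CCAAT and to the GC box letters GGGCGG.
Myof, chr19:38043578-38043827, minus strand: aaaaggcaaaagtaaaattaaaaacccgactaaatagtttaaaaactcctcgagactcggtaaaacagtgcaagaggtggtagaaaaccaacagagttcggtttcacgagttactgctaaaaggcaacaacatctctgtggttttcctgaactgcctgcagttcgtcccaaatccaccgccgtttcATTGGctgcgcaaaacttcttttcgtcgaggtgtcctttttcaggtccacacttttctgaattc
Dysf, chr6:84008348-84008589, plus strand: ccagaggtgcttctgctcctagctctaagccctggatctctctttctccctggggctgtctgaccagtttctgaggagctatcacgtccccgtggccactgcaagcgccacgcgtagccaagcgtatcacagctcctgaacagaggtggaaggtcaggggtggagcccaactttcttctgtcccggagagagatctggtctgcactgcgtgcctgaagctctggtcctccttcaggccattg
Anxa2, chr9:69453433-69453619, plus strand: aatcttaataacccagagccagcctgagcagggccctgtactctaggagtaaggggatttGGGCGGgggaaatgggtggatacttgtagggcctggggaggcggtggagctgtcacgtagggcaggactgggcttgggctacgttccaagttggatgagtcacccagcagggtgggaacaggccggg

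The stretch before Myof held 42.8% G and C, against 58.7% before Dysf and 59.9% before Anxa2. It held 1 reverse match to CCAAT, the letters of which occur on either strand in 33.8% of all 32851 RefSeq promoter windows of the same length, and no match to GGGCGG, which occurs in 32.7%. A search of the full windows, 11 for the 8 genes with an entry, gave GGGCGG in 5 windows, CCAAT in the Myof window only and TATAAA in 2 windows. TATAAA occurs in 12.4% of all windows, and its first base lay at −32 before Anxa1 and at −17 before Anxa2. The window of Anxa1 lies wholly inside a GENCODE exon and is not printed, and Anxa3 and Anxa6 had no entry in the table. These matches are descriptions of the letters and not of binding sites.

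Myof and Dysf, the ferlins. Myof encodes myoferlin, which takes part in membrane fusion in muscle precursors and endothelial cells. The gene lies on the minus strand at chr19:37899036-38043577 (GRCm38) and has 12603 bp of merged exons. Myof had 181, 148 and 95.7 normalized counts in R1 replicates 1 to 3 and 41.4, 27.6 and 21.7 in HN, from 170, 200 and 71 reads against 34, 39 and 20. The lowest R1 library was above the highest HN library, and HN was the lower line on each date, with differences of −2.10, −2.38 and −2.09 on the log2(value + 1) scale. The R1 mean of 142 ± 43.0 stood against 30.2 ± 10.1 in HN (SD, n = 3 each), and the log2 difference of HN from R1 was −2.19 ± 0.31 (SE). Myof had the 15th lowest log2 difference of the 14276 tested genes.

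Dysf encodes dysferlin, the ferlin whose loss causes a muscular dystrophy in people. It lies on the plus strand at chr6:84008590-84211060. It had 21.3, 9.62 and 36.4 normalized counts in R1 and 8.52, 12.8 and 14.1 in HN, from 7 to 27 reads per library. The lines overlapped, since the R1 value of the second date (9.62) lay inside the HN range. HN was lower on the first and the third date and higher on the second. The log2 difference was −0.72 ± 0.51 (SE), with −1.23, 0.37 and −1.31 within dates, and a weak antisense overlap, 5.49% of its exon bases with Gm15475 and Gm33024, could not be separated because strand was not recorded. Myof made up 79.8% ± 14.5 of the summed level of Myof and Dysf per kb in R1 and 61.8% ± 13.2 in HN (SD, n = 3 each). The lines overlapped in this share, with 63.5% to 91.0% in R1 and 50.4% to 76.2% in HN.

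**Figure D1:**
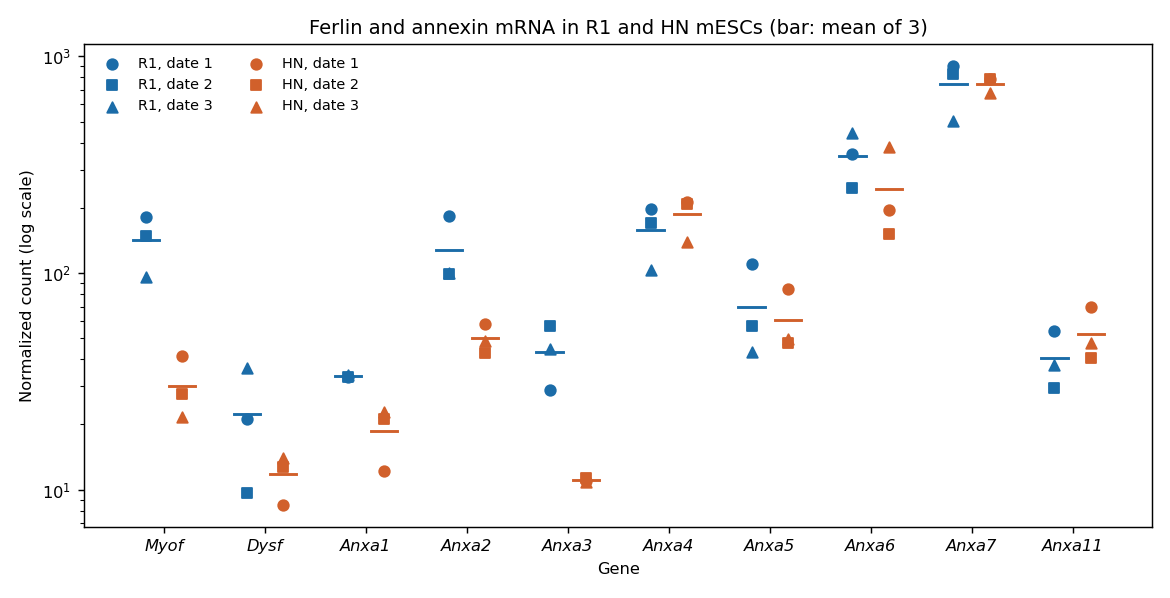
Normalized counts (log axis) of the 10 ferlin and annexin genes in each library, with R1 in blue and HN in orange, collection dates as circles (date 1), squares (date 2) and triangles (date 3), and the mean of 3 libraries as a bar. The lines do not overlap in Myof, Anxa1, Anxa2 and Anxa3, whereas they overlap in the other 6 genes.

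Anxa1, Anxa2 and Anxa3. These 3 annexins were lower in HN without overlap of the lines. Anxa3, also known as lipocortin III, lies on the plus strand at chr5:96793339-96845966. It had 28.7, 57.0 and 44.5 normalized counts in R1 and 10.95, 11.3 and 10.8 in HN, from 27, 77 and 33 reads against 9, 16 and 10. The HN libraries lay close together, below every R1 library. R1 averaged 43.4 ± 14.1 and HN 11.04 ± 0.267 (SD, n = 3 each), and the log2 difference was −1.83 ± 0.36 (SE), with −1.32, −2.23 and −1.94 within dates. The counting error of so few reads per HN library is wider than the spread between these libraries.

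Anxa2 encodes annexin A2, which binds S100A10 in a complex at the plasma membrane and lies on the plus strand at chr9:69453620-69491795. It had 184, 99.1 and 99.7 normalized counts in R1 and 58.4, 42.5 and 48.7 in HN. The R1 library of the first date was the highest and the other R1 libraries were nearly equal, all above HN. R1 averaged 128 ± 48.9 and HN 49.9 ± 8.0 (SD, n = 3 each), and the log2 difference was −1.29 ± 0.28 (SE). Within dates the log2 differences were −1.64, −1.20 and −1.02.

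Anxa1 encodes annexin A1, a phospholipid-binding protein with anti-inflammatory action, and lies on the minus strand at chr19:20373428-20390944. It had 33.0, 33.3 and 33.7 normalized counts in R1 and 12.2, 21.3 and 22.7 in HN, from 25 to 45 reads against 10 to 30. R1 was almost constant, although the counting error of 25 to 45 reads per R1 library is wider than the spread between these libraries. HN was lowest on the first date. The log2 difference was −0.85 ± 0.34 (SE), with −1.37, −0.62 and −0.55 within dates. Anxa1 and Myof lie on the same chromosome but far apart.

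Anxa6, Anxa5 and Anxa7. Anxa6 encodes the annexin with a duplicated core and lies on the minus strand at chr11:54979108-55033445. It had 353, 248 and 443 normalized counts in R1 and 196, 151 and 382 in HN. The lines overlapped because the third date was the highest in both, yet HN was the lower line on each date, with log2 differences of −0.85, −0.71 and −0.21. The log2 difference was −0.59 ± 0.32 (SE). Anxa5 encodes the phosphatidylserine-binding annexin used as a probe of dying cells and lies on the minus strand at chr3:36448923-36475894. It had 110, 57.0 and 43.1 normalized counts in R1 and 84.0, 47.5 and 49.8 in HN. The ranges overlapped almost fully, and the difference was −0.15 ± 0.35 (log2, SE), with −0.38, −0.26 and 0.20 within dates. Anxa7 encodes synexin, which was described as a chromaffin granule aggregating protein, and lies on the minus strand at chr14:20455260-20480133. It had 903, 831 and 505 normalized counts in R1 and 782, 786 and 674 in HN, all within the same range. The means of 747 ± 212 and 747 ± 63.9 (SD, n = 3 each) differed by 0.04 ± 0.23 on the log2 scale (SE), with a 95% interval from −0.46 to 0.54. Within dates the log2 differences of Anxa7 were −0.21, −0.08 and 0.41.

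Anxa4 and Anxa11. These 2 annexins had the higher value in HN on every date, though the lines overlapped. Anxa4, an annexin of epithelial cells, lies on the minus strand at chr6:86736840-86793584. It had 197, 171 and 104 normalized counts in R1 and 212, 209 and 140 in HN. The difference was 0.27 ± 0.27 (log2, SE), with 0.10, 0.29 and 0.43 within dates, and the third date was the lowest in both lines. Anxa11 has a long N-terminal stretch that binds ALG-2 and lies on the plus strand at chr14:25842156-25886804. It had 54.3, 29.6 and 37.7 normalized counts in R1 and 69.4, 40.4 and 47.7 in HN. The first date was the highest in both lines, and the difference was 0.37 ± 0.31 (log2, SE), with 0.35, 0.44 and 0.33 within dates. Of the 50-base stretches of Anxa11 transcripts, 16.2% also occur in Anxa11os, Gm2260 or Gm2274, so its values are less certain than those of the other genes, in which this share was at most 3.12%.

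**Figure D2:**
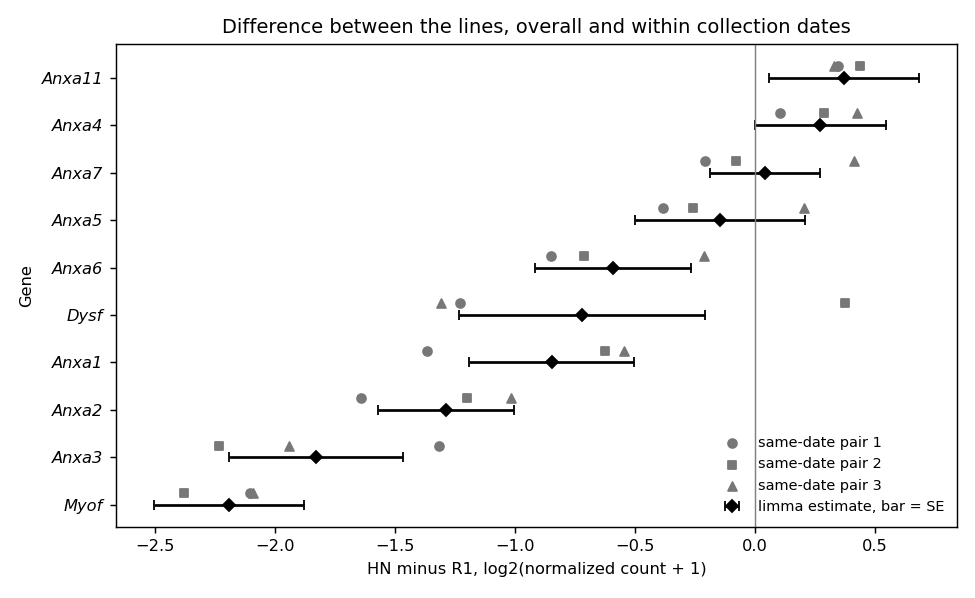
Difference of HN from R1 in log2(normalized count + 1) for each gene, as the limma estimate with its SE (black diamonds and bars) and within each same-date pair (grey symbols). Myof, Anxa1, Anxa2, Anxa3 and Anxa6 lie below 0 in all 3 pairs, and Anxa4 and Anxa11 lie above 0 in all 3.

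Counts over the 10 genes were as follows. The lines did not overlap in 4 genes, all lower in HN, and of all tested genes 10.8% did not overlap and 5.54% did so with HN lower. HN was lower in all 3 same-date pairs in 5 genes, as it was in 21.1% of tested genes. The median log2 difference was −0.66 over the 10 genes and −0.01 over all tested genes. With an adjusted p under 0.05 and an absolute log2 difference above 1 as the threshold, 1 gene, Myof, was past it in limma (0.245% of all tested genes in either direction, 0.126% with HN lower). With the replicate number as a block the same threshold was passed by Myof, Anxa2 and Anxa3 (1.95% of all tested genes, 1.04% with HN lower), and DESeq2 without the block gave these 3 genes too. An adjusted p under 0.05 alone, with the block, was reached by these 3 and by Anxa1 and Anxa6 (9.48% of all tested genes). Because the family was chosen on this contrast, the counts describe the choice and test nothing. In bulk RNA, fewer cells that express a gene and less RNA per cell cannot be told apart.

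Levels can be compared between genes only per length, here as RPKM, the reads on a gene scaled to the length of its merged exons in kb and to the reads of the library. In R1 Anxa7 (49.5 ± 10.3) and Anxa6 (49.0 ± 18.5) had the highest levels, with overlapping ranges. Anxa5 (15.6 ± 7.17), Anxa2 (13.7 ± 4.79) and Anxa4 (13.4 ± 3.17) came next and overlapped with each other in the order given. Anxa3 (4.81 ± 1.53), Anxa1 (4.64 ± 0.520), Myof (4.47 ± 1.06) and Anxa11 (3.96 ± 1.21) followed, each overlapping with its neighbour, and Dysf (1.13 ± 0.782) was the lowest without overlap (SD, n = 3 for all). With the longest transcript as length the order within the middle group turned, to Anxa4 (23.8), Anxa2 (22.5) and Anxa5 (16.04).

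In HN, Anxa7 (49.1 ± 2.19) and Anxa6 (33.6 ± 19.3) again had the highest levels per kb. Anxa4 (15.7 ± 2.68) and Anxa5 (13.5 ± 4.66) overlapped, and so did Anxa2 (5.30 ± 1.04) and Anxa11 (5.03 ± 1.54), but Anxa5 and Anxa2 did not. Anxa1 (2.55 ± 0.841) lay above Anxa3 (1.20 ± 0.0643) without overlap, whereas Anxa3 overlapped with Myof (0.943 ± 0.309). Dysf (0.561 ± 0.157) was again the lowest (SD, n = 3 for all). Anxa2 thus stood beside Anxa4 and Anxa5 in the order of R1 and beside Anxa11 in that of HN.

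The summed level of the 8 annexins was 177, 132 and 155 in R1 and 130, 104 and 143 in HN, in the same unit, and the lines overlapped. Anxa7 and Anxa6 together carried most of it in every library. The share of Anxa2 was 8.71% ± 1.81 in R1 and 4.20% ± 0.471 in HN, and that of Anxa3 was 3.24% ± 1.38 and 0.961% ± 0.111. The share of Anxa4 was 8.74% ± 2.00 in R1 and 12.8% ± 3.50 in HN, and that of Anxa11 was 2.52% ± 0.441 and 3.98% ± 0.961 (SD, n = 3 for all shares). On the third date Anxa6 rather than Anxa7 took the largest share, with 44.3% in R1 and 38.8% in HN. This order depends on the length, since Anxa7 has 5991 bp of merged exons but 2904 bp in its longest transcript. With the longest transcript as length the order turned in HN.

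**Figure D3:**
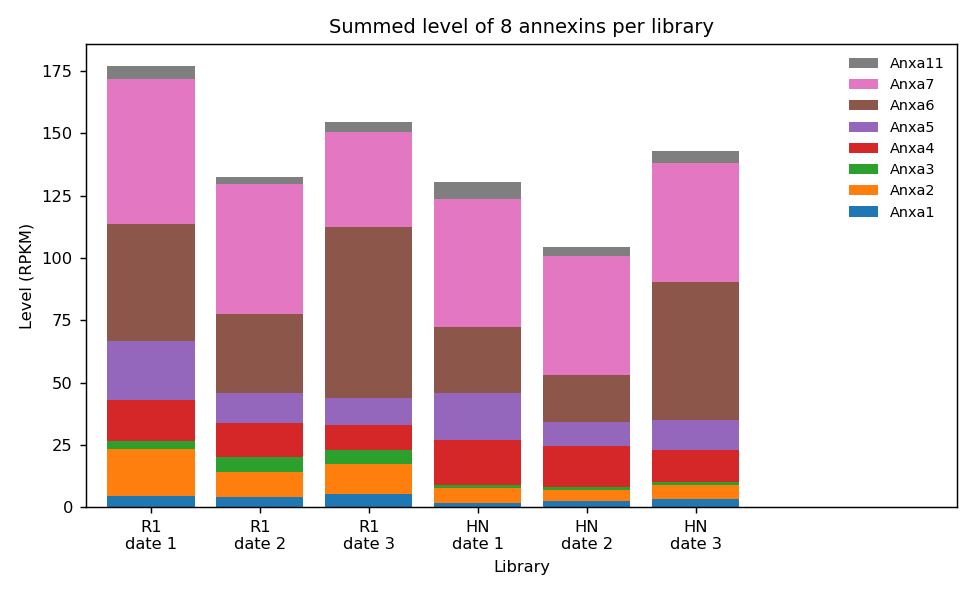
Level of each annexin in RPKM (reads scaled to merged exon length and to the reads of the library), stacked for each library of R1 and HN. The summed level ranges from 132 to 177 in R1 and from 104 to 143 in HN, and Anxa6 and Anxa7 make up most of every bar.

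The collection date was not used to choose the family, so its effect on the genes was tested, as the third date against the mean of the earlier dates with the line in the model. Each date has its own term in this model, so the p-values do not measure the difference against the spread between dates. Of the 10 genes, 5 had an adjusted p under 0.05 in limma, near the 40.9% of all tested genes. Anxa6 rose on the third date, by 0.86 on the log2 scale (95% interval 0.61 to 1.12, adjusted p = 4.36e-06). Anxa4, Myof, Anxa5 and Anxa7 were lower on the third date than the mean of the earlier dates. In Anxa5 the first date was the highest in both lines (110 in R1 and 84.0 in HN). Its HN value on the third date (49.8) was above that on the second (47.5), so no steady fall to the third date was seen. Anxa4 changed by −0.70 (adjusted p = 0.000166), Myof by −0.69 (adjusted p = 0.00446), Anxa5 by −0.60 (adjusted p = 0.0153) and Anxa7 by −0.50 (adjusted p = 0.000647), all on the log2 scale. No gene of the family passed the threshold with an absolute log2 difference above 1, which 15.5% of all tested genes did.

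Dysf had a log2 difference of 0.84 on the third date with an adjusted p of 0.0789, and the differences of Anxa1 (0.25), Anxa2 (−0.23), Anxa3 (0.05) and Anxa11 (−0.12) had adjusted p-values from 0.302 to 0.917 in limma. Centring each library on its median moved the median of all genes by 0.13 on the log2 scale in this contrast. Under it Anxa5 had an adjusted p of 0.0547, and Dysf had one of 0.0350. The sign of Anxa11 turned under median centring, and those of Anxa1 and Anxa3 turned under quantile normalization. Without R1 replicate 3 only Anxa4 and Anxa6 had an adjusted p under 0.05, and without R1 replicate 2 only Anxa4, Anxa6 and Anxa7 did. Without the variance trend in limma none of the 10 did.

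**Figure D4:**
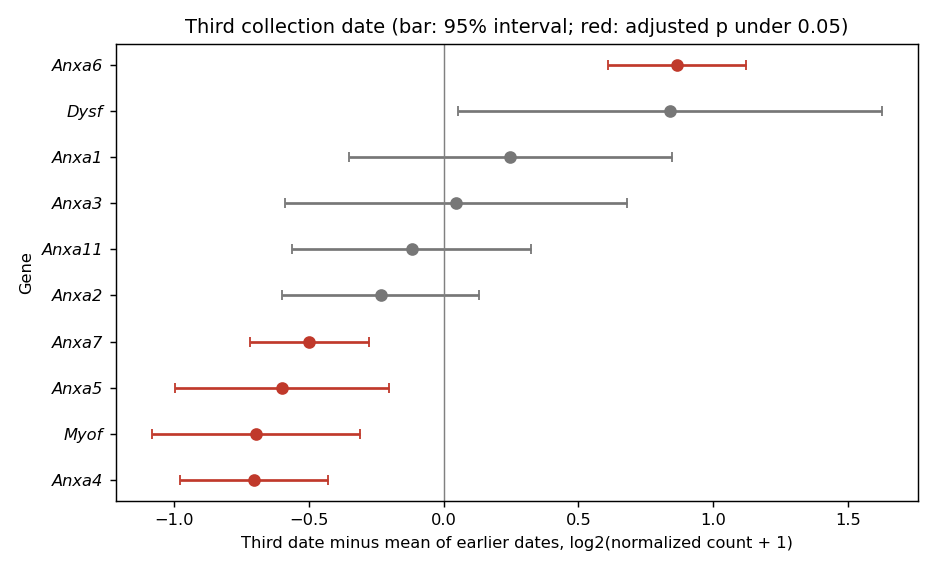
Difference of the third collection date from the mean of the earlier dates in log2(normalized count + 1), with the line in the model, for each gene with its 95% interval. The genes in red (Anxa6 above 0, and Anxa7, Anxa5, Myof and Anxa4 below 0) have an adjusted p under 0.05 in limma over 14276 genes.

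Whether the date difference itself differed between R1 and HN was tested as an interaction. In limma 0 of the 10 genes had an adjusted p under 0.05, 0 had an unadjusted p under 0.05, and edgeR gave 0 too. Over all 14276 genes 0 had an adjusted p under 0.05 and 1.04% an unadjusted one. The estimates ranged from −0.88 for Dysf to 0.57 for Anxa6 on the log2 scale, and their intervals were wide (−0.38 to 1.51 for Anxa6 and −1.01 to 1.31 for Myof).

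Genes that work with ferlins and annexins were listed by role, with earlier results of these data known, in 6 lists of 79 genes, 73 of which were measured and 63 tested. In limma without the block 0 of them passed the threshold of adjusted p and fold, 8 (12.7%, against 5.91% of all tested genes) had an unadjusted p under 0.05, edgeR gave 0 and DESeq2 gave 1, S100a10. With the replicate block 3 passed it (4.76%, against 1.95% of all tested genes), S100a10 (lower in HN), S100a13 and Bin1 (both higher), and edgeR with the block gave these and S100a1. The median log2 difference over the 63 genes was −0.01, the same as over all tested genes to this precision.

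S100a10 encodes the S100 protein that pairs with annexin A2, and lies on the plus strand at chr3:93555080-93564643. It had 367, 323 and 191 normalized counts in R1 and 129, 130 and 119 in HN. All HN libraries lay close together and below every R1 library. The log2 difference was −1.16 ± 0.25 (SE), with HN lower in 3 of 3 pairs, and the adjusted p was 0.136 in limma, 1.02e-07 with the block and 0.000894 in DESeq2. Over the fits that left out 1 library the log2 difference ran from −1.44 without R1 replicate 3 (adjusted p = 0.00836 in limma) to −0.97 without R1 replicate 1 (adjusted p = 0.682), and over all alternatives the adjusted p ran from 1.96e-11 to 0.682. Per kb, the S100a10 level was 96.3 ± 23.2 in R1, against 41.0 ± 1.55 in HN (SD, n = 3 each), above that of every annexin in R1. The ratio of the S100a10 level to the Anxa2 level was 6.14, 10.04 and 5.91 in R1 and 6.80, 9.44 and 7.52 in HN, so the lines overlapped in this ratio, and the second date had the highest ratio in both.

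Of the other S100 genes, S100a13 had 21.3, 2.96 and 4.04 normalized counts in R1 and 184, 21.3 and 48.7 in HN, from as few as 3 reads. The first date was the highest in both lines, and HN was higher in 3 of 3 pairs, with a log2 difference of 2.95 ± 0.77 (SE) and an adjusted p of 0.311 in limma and 6.92e-09 with the block. With 1 library left out its log2 difference ran from 2.12 without HN replicate 1 (adjusted p = 1.0 in limma) to 3.72 without R1 replicate 1 (adjusted p = 0.198), and an adjusted p under the threshold, 0.0499, was reached without HN replicate 2. S100a6 and S100a11, which encode further S100 partners of annexins, had log2 differences of −0.77 and 0.07 and adjusted p-values of 0.174 and 0.927 with the block, and were named here after their values were seen.

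Among genes of caveolae and membrane remodelling, 10 of which were tested, Bin1, which encodes a membrane-bending BAR protein, had 40.3 ± 12.9 normalized counts in R1 and 87.3 ± 47.2 in HN (SD, n = 3 each). Its log2 difference was 1.01 ± 0.37 (SE), with HN higher in 3 of 3 pairs, and its adjusted p was 0.658 in limma and 0.000619 with the block. Ahnak, which encodes a very large scaffold protein that binds the S100A10 and annexin A2 complex and dysferlin, was named after its values were seen. It had 480, 654 and 437 normalized counts in R1 and 776, 887 and 653 in HN. The ranges of the lines touched narrowly and HN was higher in 3 of 3 pairs, with a log2 difference of 0.57 ± 0.21 (SE) and an adjusted p of 0.652 in limma and 6.56e-05 with the block.

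In the other lists no gene passed the threshold of adjusted p and fold in limma, with or without the block, and the genes with the largest differences are given as values. Among the further ferlins and annexins, of which 3 of 8 were tested, these were Anxa8 (−0.48) and Fer1l4 (0.24), with adjusted p-values of 0.626 and 0.879 with the block. Among 7 genes of the calpain list, which holds calcium-activated proteases, their small subunit and the inhibitor gene Cast, they were Capn2 (−0.45, adjusted p = 0.165 with the block) and the small subunit Capns1 (0.35, adjusted p = 0.0104 with the block). Among 22 genes of the ESCRT machinery, which sheds damaged membrane, they were Chmp2a (−0.67, adjusted p = 6.10e-05 with the block) and Pdcd6ip, which encodes the ALG-2 partner ALIX (0.57, adjusted p = 0.00308 with the block). Among 15 genes of lysosome exocytosis and SNARE fusion they were Rab3a (−0.73) and Syt11 (0.69), with adjusted p-values of 0.149 and 0.160 with the block. Of that list Vamp3 (−0.47, 0.0157) and Vamp8 (−0.64, 0.0470), named after their values were seen, had an adjusted p under 0.05 with the block. All these differences are HN minus R1 on the log2 scale, and the adjusted p without the block was at least 0.668 for each.

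**Figure D5:**
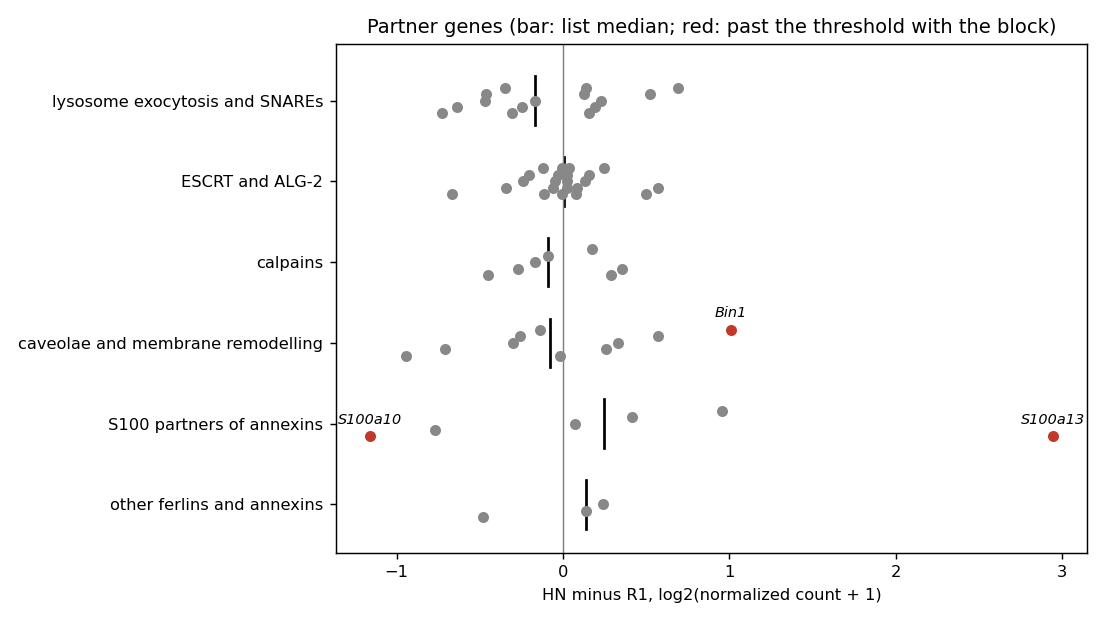
Difference of HN from R1 in log2(normalized count + 1) for the 63 tested partner genes by list, with the list median as a black bar. The 3 genes in red, S100a10 (−1.16), S100a13 (2.95) and Bin1 (1.01), passed the threshold with the replicate block, and none passed it without the block.

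The genes next to the family members were compared as well, taking the 3 nearest tested genes on each side, 60 in all. In limma 0 of them passed the threshold, with or without the block, 4 (6.67%, against 5.91% of all tested genes) had an unadjusted p under 0.05 without it, and edgeR and DESeq2 gave 0. With the block 5 of them, or 8.33%, had an adjusted p under 0.05, against 9.48% of all tested genes, so both shares were near the background. Beside Myof, Cep55 at a distance of 11434 bp had 535 ± 111 normalized counts in R1 and 429 ± 84.8 in HN (SD, n = 3 each), a log2 difference of −0.32 with an adjusted p of 1.0 in limma and 0.0346 with the block. Cyp26a1 on the other side, 197500 bp away, had 1 to 17 reads per library and a difference of 0.59 whose sign depended on the tool. Beside Anxa3, Fras1 at 8611 bp had a log2 difference of −0.44 and Bmp2k at 151723 bp one of 0.51, with adjusted p-values of 0.458 and 0.233 with the block. Around Anxa11 (0.37) on chromosome 14 the log2 differences were 0.53 (Zcchc24), 0.11 (Ppif), 0.25 (Zmiz1), 0.72 (Slmap), 0.34 (Dennd6a) and 0.44 (Arf4). Around Anxa7 on the same chromosome they ran from −0.05 (Dnajc9) to 1.055 (Ttc18). Slmap and Arf4, and Usp54 beside Anxa7 (0.76), had an adjusted p under 0.05 with the block. Whether Anxa11 moved with its surroundings was not tested.

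Markers of other cells moved as follows beside the lower Myof, Anxa1, Anxa2 and Anxa3 in HN. In limma without the block 0 genes of the 6 marker lists passed the threshold, and with the block 6 of 51 tested did (11.8%, against 1.95% of all tested genes). DESeq2 without the block gave Lama1 (1.05, adjusted p = 6.15e-05). In DESeq2 Zfp42 had an adjusted p of 0.000404 but stayed below the fold threshold (−0.79). Of 7 tested fibroblast markers, Thy1 (33.3 ± 8.16 in R1, 12.4 ± 7.67 in HN) and Pdgfrb (60.5 ± 22.7 and 21.6 ± 5.52) were lower in HN with the block. The other tested ones did not pass the threshold, with log2 differences of −0.45 (Col1a2), −0.13 (Col1a1), 0.11 (Col3a1), 0.23 (Prrx1) and 0.63 (Twist1). The list median was −0.13. The summed normalized counts of the list, which include Thy1 and Pdgfrb, ranged from 84.3 to 218 in R1 and from 46.1 to 129 in HN. Of 11 primitive endoderm markers, Lama1 was higher (log2 difference 1.04) and Col4a1 lower (−1.37) in HN. Within dates Col4a1 differed by −2.26, −1.66 and −0.21, so little of its difference was seen on the third date. The other markers of the list ran from −0.74 (Sox17) to 0.87 (Gata4), and the list median was 0.015. The list, with Lama1 and Col4a1 included, summed to between 865 and 1082 in R1 and between 1044 and 1130 in HN. Of 10 markers of undifferentiated mESCs, 5 were higher (Nanog, Klf4, Esrrb, Tfcp2l1 and Dppa5a, by 0.27 to 0.56) and 2 lower (Zfp42 by −0.79 and Utf1 by −1.06) at an adjusted p under 0.05 with the block, of which Utf1 alone passed the fold threshold, and the list median was 0.14. Of 6 tested early streak markers T was higher (1.21). Eomes (0.96) was higher at an adjusted p under 0.05 with the block but below the fold threshold. Differences in this list ran from −0.67 (Foxf1) to 1.21. The list summed to between 96.9 and 184 in R1 and between 201 and 270 in HN. These sums include T and Eomes, which had the highest mean values of the list. No trophectoderm or neural marker passed the threshold. The neural marker Tubb3 was lower (−0.76) at an adjusted p under 0.05 with the block, in a list that ran from −0.76 to 0.53 (Nes). Trophectoderm markers summed to between 141 and 268 in R1 and between 172 and 284 in HN. Neural markers summed to between 303 and 379 in R1 and between 224 and 353 in HN, and Tubb3 had the highest mean value among them. No marker was at 0 in all libraries. The part of these markers in the result was not tested.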

How the data were processed

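RNA from 3 same-date replicates of R1 and HN mESCs was sequenced as unstranded TruSeq read pairs. For every gene the authors deposited a normalized signal. The authors aligned reads to mm10 with STAR, removed duplicates with Picard, counted exon reads with HTSeq and divided by DESeq2 size factors. Versions are not given in the sources used here.

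Each value was a whole multiple of 1 read (100% of values), and reads were recovered for depth, levels per kb and count-based alternatives. Intervals cover the spread between these libraries only, and since no molecular identifiers were used, reads may not be independent molecules. Of the rows, 27 named by a date were not named here, and unused columns of per-sample values numbered 0. Positions and exon lengths came from GENCODE M21, and promoters from RefSeq (8 of 10 genes matched). Replicates of a line differed by more than sampling noise (chi-square per degree of freedom 4.70 to 9.91).

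Lines were compared with limma 3.58.1 in R 4.3.3 on log2(value + 1) with a variance trend over 14276 genes with a mean of at least 5, and p-values were adjusted by Benjamini-Hochberg. A gene passed the threshold with an adjusted p under 0.05 and an absolute log2 difference above 1. The methods name no block, so the main design has none. The replicate block is an alternative, and the pairing comes from the dates in the labels (same-date correlations 0.25, 0.688 and 0.768). The third date was compared with the earlier dates with the line as a term, and the line by date interaction was tested in the same way. Other alternatives were edgeR 4.0.16 and DESeq2 1.42.0 on recovered reads, edgeR with the block, pseudocounts of 0.1 and 10, no filter, a mean of at least 50, no trend, quantile normalization, median centring, longest transcript lengths and leaving out each library. Scripts were tested on simulated data.

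The family and the lists of partners and markers were chosen with earlier results of these data known. The text names all 10 genes, Htt, the partner genes past the fold threshold in limma with or without the block (otherwise the 2 largest differences of a list), the markers past it, and the neighbours of Myof and Anxa3. Further markers and the neighbours of Anxa7 and Anxa11 were named after their values were seen. The 2 most abundant markers of each list belong to the rule too, and of these Tfcp2l1, Tdgf1, Sparc, Krt8, Krt18, Eomes, Tubb3 and Sox1 did not pass the threshold in limma.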

Additional observations from a re-analysis of the deposited data

How the results depend on the processing

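All values compare HN with R1 or the third date with the earlier dates, with 35 genes past the threshold for the lines and 2208 for the date in the design as reported. For the lines, 278 genes passed it with the replicate block, 284 in edgeR with the block, 80 in DESeq2, 0 without the variance trend, and 9 to 56 when 1 library was left out (9 without R1 replicate 1, 13 without HN replicate 1 and 56 without R1 replicate 3). Of the 10 ferlins and annexins 1 passed it as reported, 3 with the block, in edgeR with the block and in DESeq2, 0 without the trend, and 0 to 1 when a library was left out (0 without R1 replicate 1). Of the partner genes 0 passed it as reported, 3 with the block, 4 in edgeR with the block, 1 in DESeq2 (S100a10), 1 under quantile normalization, and 0 to 1 when a library was left out (1 without R1 replicate 3 and without HN replicate 2). The block changed no call among the flanking genes by this threshold.

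For the date, 858 genes passed it with a pseudocount of 10, 3377 with no filter, 144 with a mean of at least 50, 1375 under quantile normalization, 1187 without the trend and 741 to 2783 when a library was left out (741 without R1 replicate 3). Of the 10 genes 0 passed it as reported, 1 (Anxa6) under quantile normalization, and 0 to 1 when a library was left out (Anxa6 without R1 replicate 3, and Dysf without R1 replicate 1, HN replicate 2 or HN replicate 3). With adjusted p under 0.05 alone there were 5 as reported, 0 without the trend and 2 to 6 when a library was left out. The interaction could not be fitted without replicate 3 of either line, and the mean of at least 50 left 6 of the 10 genes.

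Signs turned for the date difference of Anxa1 (−0.071, quantile), Anxa3 (−0.34, quantile, and −0.15 to 0.24 when a library was left out) and Anxa11 (0.017, median centring), and for the line difference of Cyp26a1 (−0.10 in edgeR and −0.15 in DESeq2). They also turned when a library was left out for Anxa8 (−1.18 to 0.18), Fer1l4 (−0.11 to 0.56), Capns1 (−0.022 to 0.62), Cyp26a1 (−0.18 to 1.71) and Fras1 (−0.97 to 0.13). The cause was not tested. Line differences of Anxa5 and Anxa7, both near 0, turned sign in 5 of 166 values over the 10 genes.

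With the longest transcript as length, levels in R1 were 7.93 for Myof, 8.06 for Anxa1, 22.5 for Anxa2, 10.99 for Anxa3, 23.8 for Anxa4, 102 for Anxa7, 6.0 for Anxa11 and 247 for the annexin sum, and in HN 1.68, 4.43, 8.67, 2.73, 27.9, 101, 7.61 and 206 in the same order. Anxa5 had 16.04 in R1, and S100a10 had 170 in R1 and 72.6 in HN. Dysf, Anxa1, Anxa3 and Anxa11 rest on 7 to 77 reads per library, which limits the precision of their differences.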
